A study of Homo sapiens with 6 samples.

Results

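The enzymes examined here make, recycle and balance the nucleotides from which RNA and DNA are built. The set holds 34 genes, chosen by name as rows of the deposited table whose symbol equals a listed enzyme, out of 61806 rows in all. All 34 were found, each in 1 row, and all 34 passed the filter on low counts that left 15687 genes for testing. They were divided by role into 13 purine enzymes, 7 pyrimidine enzymes, 10 enzymes of deoxynucleotides and 4 enzymes that serve both kinds of base.

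RNA-seq libraries were made from HCT116, an established human colorectal carcinoma cell line. The 3 si-NC libraries came from cells labelled wildtype that were given a control short interfering RNA, and the 3 si-STRIP2 libraries from cells labelled as STRIP2 knockdown that were given a short interfering RNA against STRIP2. All were grown in McCoy's 5A medium with fetal bovine serum and antibiotics, and nothing else is listed as given to either group. The sequence and number of the short interfering RNAs and the time after transfection are not given in the sources used here. No label says whether the libraries were grown as separate cultures, so p-values measure the spread between these libraries, which may be technical.

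Purine rings are built on phosphoribosyl pyrophosphate (PRPP) in a chain of steps that ends at inosine monophosphate (IMP), which is then turned into adenine or guanine nucleotides. The pyrimidine ring is built first and joined to PRPP afterwards, giving uridine and then cytidine nucleotides. Ribonucleotide reductase converts ribonucleotides to deoxynucleotides, and thymidylate synthase makes the thymine nucleotide that is particular to DNA. Dividing cells make most of these enzymes in larger amounts, and in colorectal cancer thymidylate synthase is the target of fluorouracil.

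The libraries held 17184963 to 21721218 counts, and the TMM factors, which correct for composition, lay between 0.990 and 1.01. STRIP2 itself had FPKM values (counts scaled by exonic length and library total) of 3.19, 3.77 and 3.81 in si-NC and of 2.71, 2.53 and 2.58 in si-STRIP2. Its level in si-STRIP2 was 72.8% of the control level (log2 change -0.46, SE 0.083, edgeR adjusted p = 1.62e-05), so the knockdown was partial at the RNA level. Of 12 markers of colorectal epithelium, 9 were at 1 FPKM or more in every library, with EPCAM between 187 and 213 FPKM. CDX1 was listed at 0 and VIL1 at 0.03 FPKM or less. The summed markers of leukocytes stayed at or under 0.36 FPKM and those of endothelium at or under 0.1 FPKM, and among 5 fibroblast genes only COL1A1 exceeded 1 FPKM. The summed epithelial markers were at 780 to 809 FPKM in si-NC and at 733 to 761 FPKM in si-STRIP2, and the part of that difference in the results below was not tested. Most single markers that were tested were called lower. CDH1 fell from 36.6 to 24.2 FPKM, CLDN7 from 66.9 to 49.4 and CLDN4 from 19.1 to 15.2. Also lower were EPCAM (206 to 191), KRT18 (195 to 172), CLDN3 (2.99 to 2.11) and KRT20 (0.627 to 0.313). KRT19 rose from 140.0 to 164 and CDX2 from 2.51 to 3.28, and KRT8 did not pass.

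Most of the enzymes were more abundant in si-STRIP2 cells, by modest amounts. Of the 34, 26 rose and 2 fell at an edgeR adjusted p under 0.05, and 6 did not pass. The changes were small, with a median log2 fold change of 0.27 over the 34, 19 of the 34 called at 1.2-fold or more (38.9% of all tested genes), and 0 at 2-fold or more (4.47% of all tested genes). Across all 15687 tested genes, 54.8% were called, 27.8% as higher and 27.0% as lower, and the median log2 fold change was 0.014. The enzymes are well expressed, so the 8366 tested genes within their range of abundance are a closer background. Of those, 35.4% were called higher and 33.1% lower, with a median of 0.013. The libraries of si-NC and si-STRIP2 were fully separated in FPKM for 29 enzymes, 27 of them higher and 2 lower in si-STRIP2, where 58.6% of tested genes were separated in this way (30.0% higher, 28.7% lower). At least 28 of the 34 enzymes in every si-STRIP2 library lay above the highest si-NC library. The share of all tested genes was not computed for this count. The 30.0% given above is for all 3 libraries at once, which is stricter. The smallest count behind any of these values was 238 in a library.

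**Figure D1:**
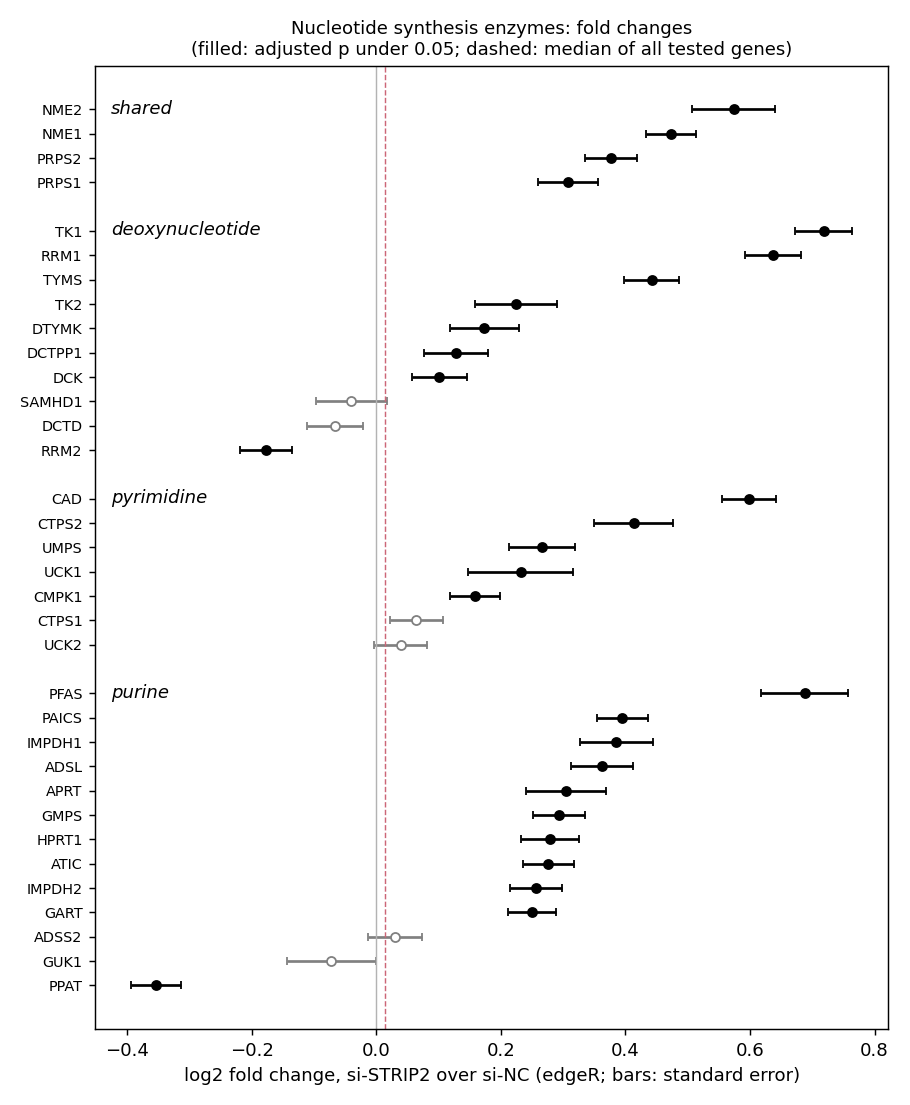
Log2 fold change of each of the 34 enzymes in si-STRIP2 over si-NC libraries (x axis, edgeR, bars are standard errors), grouped by role, with filled points for an adjusted p under 0.05 and a dashed line at the median of all tested genes (0.014). PPAT and RRM2 are the 2 filled points left of 0, and TK1 lies farthest right at 0.72.

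The summed FPKM of the 34 enzymes was 917, 922 and 880 in si-NC and 1091, 1100 and 1093 in si-STRIP2. Every si-STRIP2 library was above every si-NC library. By role, the median log2 fold change was 0.28 for purine enzymes (10 of 13 higher, 1 lower), 0.23 for pyrimidine enzymes (5 of 7 higher, 0 lower), 0.15 for deoxynucleotide enzymes (7 of 10 higher, 1 lower) and 0.42 for the shared enzymes (4 of 4 higher). The difference between roles was not tested.

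The purine route begins with PRPP synthetases, which are shared with pyrimidines and salvage. PRPS2 had 29.4, 30.8 and 30.2 FPKM in si-NC and 39.5, 39.0 and 39.0 FPKM in si-STRIP2, with no overlap (log2 change 0.38, SE 0.042, edgeR adjusted p = 2.22e-09). PRPS1, the other common form, rose from 18.7 ± 0.341 to 23.2 ± 1.29 FPKM (SD, n = 3, log2 fold change 0.31). PRPSAP1, a protein that associates with these synthetases, rose from 7.86 to 10.4 FPKM (edgeR adjusted p = 5.10e-09).

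PPAT, which commits PRPP to purines in the first step of the route, was the enzyme that fell most. It had 35.2, 35.4 and 34.9 FPKM in si-NC and 27.4, 28.01 and 27.4 FPKM in si-STRIP2. All 3 si-STRIP2 libraries were below all 3 controls, and the SD within each group was under 0.4 FPKM. On the log2 scale the change was -0.35 (standard error 0.039, adjusted p by edgeR = 2.38e-09), which left 78.3% of the control level.

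The 5 later enzymes of the route to IMP all rose. PAICS, a bifunctional enzyme of 2 middle steps, had 62.4, 64.5 and 61.1 FPKM in si-NC and 83.6, 82.1 and 82.1 FPKM in si-STRIP2. Its groups were far apart compared with their spread (log2 change 0.39, SE 0.041, edgeR adjusted p = 4.10e-10). PFAS, which adds a nitrogen to the growing ring, had the largest fold change of the purine enzymes. It had 3.32, 3.40 and 4.04 FPKM in si-NC and 5.84, 5.60 and 5.87 FPKM in si-STRIP2 (log2 change 0.69, SE 0.070, edgeR adjusted p = 2.79e-10). The third control library was higher than the other controls and still below every si-STRIP2 library. GART, a trifunctional enzyme of early steps, rose from 36.6 ± 0.735 to 43.6 ± 0.330 FPKM, ADSL, which acts in this route and again on the way to AMP, from 4.04 ± 0.0693 to 5.22 ± 0.163, and ATIC, which closes the second ring, from 32.9 ± 1.504 to 39.9 ± 0.777 (SD, n = 3 in each group).

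After IMP, the enzymes that lead to GMP rose, and neither ADSS2 nor GUK1 passed. On the guanine branch, IMPDH2, the more abundant IMP dehydrogenase, went from 79.9 ± 2.64 to 95.7 ± 2.68 FPKM, and IMPDH1 from 9.26 ± 0.411 to 12.2 ± 0.515 (SD, n = 3). GMPS, which completes GMP, went from 17.3 ± 0.824 to 21.3 ± 0.1002 FPKM. These 3 rose, with log2 fold changes of 0.26, 0.39 and 0.29. ADSS2, which starts the adenine branch, was at 33.8 ± 1.37 and 34.7 ± 0.7995 FPKM (SD, n = 3), and its log2 fold change of 0.030 had a 95% interval from -0.058 to 0.12. GUK1, the guanylate kinase, was at 6.14 ± 0.599 and 5.84 ± 0.316 FPKM, with an interval from -0.22 to 0.073. ADSS1, the other form beside ADSS2 and outside the 34, fell from 1.70 to 0.723 FPKM (edgeR adjusted p = 2.01e-10). ADSL, which rose, acts on the adenine branch but also before IMP. A difference between the branches was not tested.

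The salvage enzymes, which return free bases to nucleotides, also rose. HPRT1, for hypoxanthine and guanine, had 51.3, 52.5 and 46.2 FPKM in si-NC and 62.5, 61.1 and 58.9 FPKM in si-STRIP2 (log2 fold change 0.28, edgeR adjusted p = 4.52e-06). APRT, for adenine, had 16.9, 16.0 and 17.8 FPKM in si-NC and 22.7, 20.3 and 19.8 FPKM in si-STRIP2 (log2 fold change 0.30, edgeR adjusted p = 0.000131). For neither did the groups overlap.

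**Figure D2:**
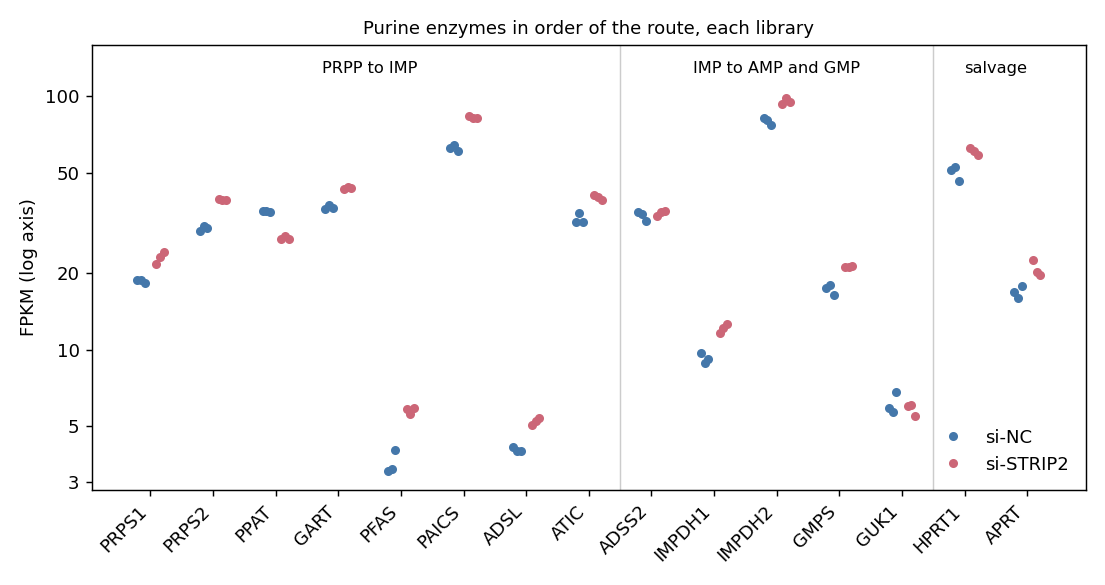
FPKM (log axis) of 15 enzymes in the order of the purine route in each si-NC and si-STRIP2 library, split into PRPP to IMP, IMP to AMP and GMP, and salvage. PPAT is the step at which the si-STRIP2 points (27.4 to 28.01 FPKM) lie under the si-NC points (34.9 to 35.4 FPKM), and at ADSS2 and GUK1 the points overlap.

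PPAT and PAICS lie head to head on chromosome 4, so a fall and a rise were measured from starts that face away from each other. In the deposited table PPAT (minus strand) ends at 56435615 and PAICS (plus strand) starts at 56435741, which leaves 125 bases between them. This stretch is shown because both genes start at its edges, and it is printed on the plus strand from RefSeq GRCh38.p14, chr4:56435616-56435740.

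Between PPAT and PAICS: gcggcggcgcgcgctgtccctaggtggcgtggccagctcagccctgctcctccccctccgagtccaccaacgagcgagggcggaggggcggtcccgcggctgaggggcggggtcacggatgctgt

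It is 76.0% G and C. It held none of the words searched, which were the E2F-like words TTTCCCGC, TTTCGCGC, TTTGCCGC and TTTGGCGC, the E-box (CACGTG, the core bound by MYC and related factors), the CCAAT box, and the cell cycle homology words (TTTGAA, or with a changed base in the middle TTCGAA), on either strand. An E-box (capitals) lies just inside PAICS, at chr4:56435772-56435801 on the plus strand, and so falls in the promoter windows of both genes.

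PAICS window: ctggaaagctgtatttgctgCACGTGgaaa

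The level of PAICS relative to PPAT was 1.77, 1.82 and 1.75 in the si-NC libraries and 3.05, 2.93 and 3.00 in the si-STRIP2 libraries. These ratios do not depend on the scaling of libraries. The pair was picked after its values were seen, so no test is given. In all, 8 enzymes had a tested protein-coding neighbour head to head within 1000 bases. TK1 rose with AFMID (log2 fold change 0.52, edgeR adjusted p = 7.17e-08), DTYMK with ING5 (0.27), GART with SON (0.18) and PFAS with CTC1 (0.17). SON shares 275 exonic bases with GART on the opposite strand and held 101% as many counts, and CTC1, with 0 shared exonic bases, held 149% as many as PFAS. CKLF, beside TK2, had a log2 fold change of -0.23 that did not pass (edgeR adjusted p = 0.0983), and TMCO1, beside UCK2, fell by 0.20 on the log2 scale. PPAT and PAICS were the pair in which both genes were called, in opposite directions.

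Among the pyrimidine enzymes, CAD changed most. CAD carries the first 3 activities of pyrimidine synthesis on a single protein. It had 9.24, 9.82 and 10.1 FPKM in si-NC and 14.9, 14.9 and 14.4 FPKM in si-STRIP2, with no overlap (log2 change 0.60, SE 0.043, edgeR adjusted p = 7.80e-14). UMPS, which makes UMP in the last 2 steps, rose from 5.63 ± 0.303 to 6.78 ± 0.265 FPKM (SD, n = 3, log2 fold change 0.27, edgeR adjusted p = 7.09e-05). DHODH, the mitochondrial enzyme between them and outside the 34, was at 2.26 ± 0.159 and 2.59 ± 0.167 FPKM and did not pass (edgeR adjusted p = 0.0607), except without si-NC replicate 1 (0.0425).

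The CTP synthetases, which turn UTP into CTP, gave different calls. CTPS2 had 4.66, 4.94 and 4.58 FPKM in si-NC and 6.15, 6.35 and 6.42 FPKM in si-STRIP2 (log2 fold change 0.41, edgeR adjusted p = 1.12e-06). CTPS1 had 7.53, 7.66 and 7.46 FPKM in si-NC and 7.74, 7.98 and 8.03 FPKM in si-STRIP2. The CTPS1 groups did not overlap either, but the change was small and did not pass (log2 fold change 0.064, 95% interval -0.022 to 0.15, edgeR adjusted p = 0.205). CMPK1, the kinase of UMP and CMP, rose from 50.9 ± 2.31 to 57.0 ± 0.250 FPKM (SD, n = 3, log2 fold change 0.16). UCK2, a uridine and cytidine kinase, was at 14.5 ± 0.606 and 15.0 ± 0.263 FPKM, with a 95% interval for its log2 fold change from -0.048 to 0.13. The other such kinase, UCK1, was called at a log2 fold change of 0.23 (edgeR adjusted p = 0.0197), and the call was lost without si-NC replicate 1 (adjusted p = 0.0631), without si-STRIP2 replicate 1 (0.0985) and under DESeq2 (0.118). POMT1, on the opposite strand, shares only 6 exonic bases with UCK1. It held 78.1% as many counts and rose by 0.50 on the log2 scale. TMCO1 and UCK2 share 225 exonic bases on opposite strands.

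The nucleoside diphosphate kinases NME1 and NME2 bring diphosphates to triphosphates for every base. NME1 had 47.4, 45.8 and 45.6 FPKM in si-NC and 64.5, 63.6 and 65.1 FPKM in si-STRIP2 (log2 change 0.47, SE 0.040, edgeR adjusted p = 4.41e-12). NME2 had 8.91, 8.66 and 8.70 FPKM in si-NC and 13.8, 13.2 and 12.3 FPKM in si-STRIP2 (log2 change 0.57, SE 0.067, edgeR adjusted p = 6.26e-09). Both rose with no overlap, but their separate levels are uncertain. The genes are neighbours of similar sequence, the read-through gene NME1-NME2 covers 638 exonic bases of NME1 and 603 of NME2, and it held 17.3% as many counts as NME2. NME1-NME2 had a log2 fold change of 0.73, and the 3 pseudogenes of NME2 held 4.23% as many counts as NME2.

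In deoxynucleotide synthesis, the subunits of ribonucleotide reductase moved in opposite directions. RRM1, the large catalytic subunit, had 44.1, 47.0 and 41.0 FPKM in si-NC and 65.6, 68.5 and 71.6 FPKM in si-STRIP2. RRM2, the small radical-bearing subunit that rises in S phase, had 75.4, 75.8 and 71.4 FPKM in si-NC and 65.2, 65.4 and 66.8 FPKM in si-STRIP2. For RRM1 every si-STRIP2 library was the higher, and for RRM2 every si-STRIP2 library was the lower. The log2 fold changes were 0.64 (standard error 0.045, edgeR adjusted p = 5.49e-14) and -0.18 (standard error 0.042, edgeR adjusted p = 0.000595). The fall of RRM2 passed under all 14 alternatives, at log2 fold changes from -0.21 to -0.16. The ratio of RRM1 to RRM2 was 0.585, 0.620 and 0.574 in si-NC and 1.01, 1.05 and 1.07 in si-STRIP2, a pair picked after its values were seen. RRM2B, the small subunit used outside S phase and a p53 target, fell too, from 42.3 ± 1.14 to 34.1 ± 1.11 FPKM (SD, n = 3, edgeR adjusted p = 5.78e-08).

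The thymidine enzymes among the 34 rose. TK1, the cytosolic thymidine kinase of dividing cells, had the largest fold change of the 34. It had 49.9, 45.8 and 48.8 FPKM in si-NC and 80.3, 83.4 and 74.9 FPKM in si-STRIP2 (log2 change 0.72, SE 0.046, edgeR adjusted p = 3.93e-15). TYMS, thymidylate synthase, had 40.5, 40.8 and 37.2 FPKM in si-NC and 52.4, 54.0 and 55.1 FPKM in si-STRIP2 (log2 change 0.44, SE 0.044, edgeR adjusted p = 1.86e-10). In neither gene did the groups overlap. ENOSF1, which shares 967 exonic bases with TYMS on the opposite strand, held 59.2% as many counts as TYMS and rose by 0.63 on the log2 scale. Whether counting used the strand is not stated, so reads of TYMS and ENOSF1 cannot be told apart there. DTYMK, the kinase that follows TK1 and TYMS, rose from 15.8 ± 0.651 to 17.9 ± 0.346 FPKM (SD, n = 3, log2 fold change 0.17), a call lost without si-NC replicate 2 (edgeR adjusted p = 0.0603) and under DESeq2 (0.0674). TK2, the mitochondrial thymidine kinase, went from 2.41 ± 0.0700 to 2.82 ± 0.0907 FPKM (SD, n = 3, log2 fold change 0.22, edgeR adjusted p = 0.00448).

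**Figure D3:**
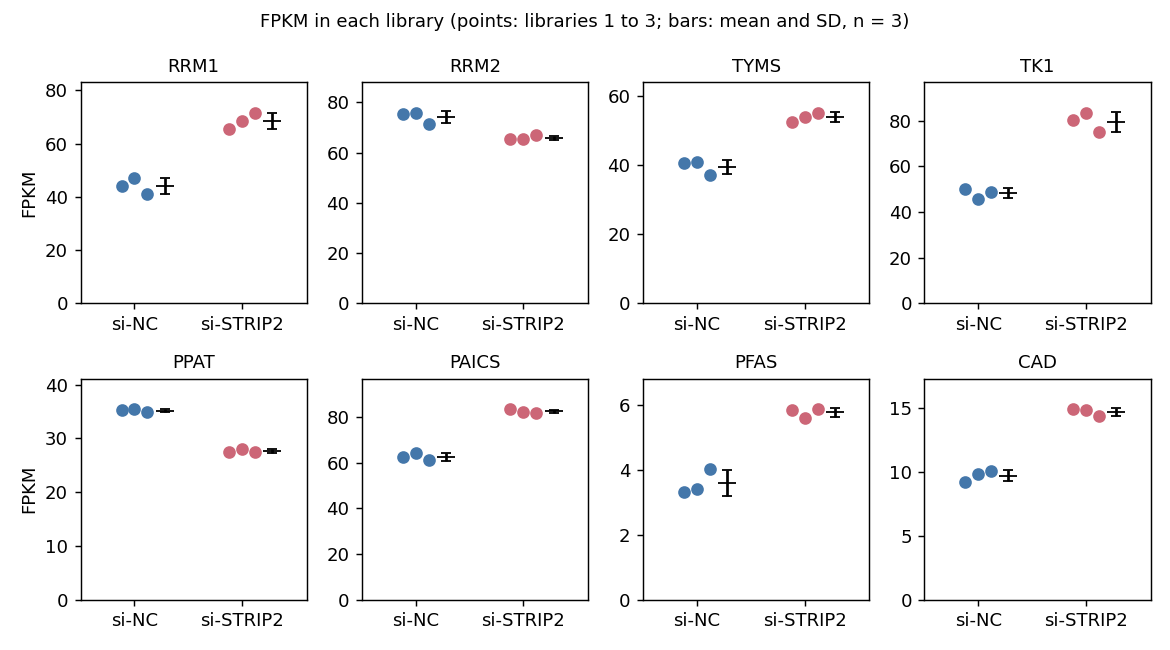
FPKM (y axis, from 0) of 8 enzymes in each si-NC and si-STRIP2 library (points), with the mean and SD of 3 libraries beside them. RRM2 and PPAT are lower and the other 6 higher in every si-STRIP2 library.

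The remaining deoxynucleotide enzymes changed little. DCK, the deoxycytidine kinase, had 33.7, 34.5 and 31.5 FPKM in si-NC and 34.8, 35.8 and 36.7 FPKM in si-STRIP2, and DCTPP1, which removes excess dCTP, had 33.1, 32.1 and 30.5 FPKM and 34.1, 35.4 and 35.6 FPKM. Both lay slightly higher in si-STRIP2 and passed narrowly, at edgeR adjusted p-values of 0.0496 and 0.0333. Leaving out si-NC replicate 1 (0.0555), si-NC replicate 3 (0.226), si-STRIP2 replicate 2 (0.109) or si-STRIP2 replicate 3 (0.220) ended the call of DCK, which held in 4 of 14 alternatives. That of DCTPP1 ended without si-NC replicate 2 (0.0741), si-NC replicate 3 (0.138), si-STRIP2 replicate 2 (0.0890) or si-STRIP2 replicate 3 (0.118), and held in 7 of 14. MOB1B shares 199 exonic bases with DCK on the same strand and held 131% as many counts. It fell, with a log2 fold change of -0.23 (edgeR adjusted p = 1.09e-05). DCTD, the dCMP deaminase, did not pass (log2 fold change -0.066, 95% interval -0.16 to 0.025). SAMHD1, which destroys deoxynucleotide triphosphates, was at 3.76 ± 0.0850 and 3.67 ± 0.200 FPKM (SD, n = 3), with an interval from -0.16 to 0.076. DUT, the dUTPase outside the 34, rose slightly, with FPKM from 19.6 to 21.6 (edgeR adjusted p = 0.0209), and lost its call without si-NC replicate 3 (0.171), si-STRIP2 replicate 2 (0.121) or si-STRIP2 replicate 3 (0.0525) and under DESeq2 (0.115).

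Promoter windows, from 250 bases before to 50 after a RefSeq start, were searched for the same words in the 32 enzymes that matched by symbol (all except ADSL and IMPDH2). E2F factors switch on genes of DNA synthesis, and their words are shown for the 3 enzymes that held one. Capitals mark the word, and each stretch is given on the strand of its gene (GRCh38.p14).

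TYMS, chr18:657603-657632: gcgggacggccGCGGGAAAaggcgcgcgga
PRPS2, chrX:12791389-12791418: agccgccgcgcTTTCCCGCtcccgcagcag
DCK, chr4:70993659-70993688: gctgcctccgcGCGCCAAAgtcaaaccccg

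An E2F-like word was thus present in 9.38% of the enzymes' windows and in 5.47% of the windows of 11073 tested genes. An E-box was present in 6 of the 32 windows, those of ATIC, DCK, DCTPP1, NME1, PAICS and PPAT, or 18.8% against 9.94% of tested genes. The E-box of PAICS and that of PPAT are the same site, counted once in each of their overlapping windows. CCAAT was present in 9 windows (28.1% against 36.9%). The cell cycle words were present in 4 windows, those of APRT, DTYMK, RRM1 and UMPS (12.5% against 11.0%). In the enzymes' windows, 0 matches of different kinds overlapped. The windows of 10 enzymes started over 200 bases from the start in the deposited table, RRM2, TK2 and PFAS among them, so that a word at the start used in these cells could be missed. DCK and DCTPP1 are also among the 10, at 1111 and 230 bases, so the E2F-like word and E-box of DCK and the E-box of DCTPP1 lie at starts away from those in the table.

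Pairs of enzymes for the same reaction were compared as a ratio of FPKM within each library, for 7 pairs. The ratio of CTPS1 to CTPS2 went from 1.598 ± 0.0419 in si-NC to 1.26 ± 0.00405 in si-STRIP2, and that of TK1 to TK2 from 20.01 ± 1.196 to 28.2 ± 0.878 (SD, n = 3). Every si-STRIP2 library was below the controls in the first ratio and above them in the second. The ratio of RRM2 to RRM2B went from 1.76 ± 0.0460 to 1.93 ± 0.0451, that of UCK1 to UCK2 from 0.360 ± 0.0150 to 0.411 ± 0.0249, and that of IMPDH1 to IMPDH2 from 0.116 ± 0.00550 to 0.127 ± 0.00526. In these 5 pairs the groups did not overlap (exact permutation test, 2-sided, p = 0.1, the smallest that 3 against 3 allows, and 0.14 after adjustment over the 7 pairs). The ratios of PRPS1 to PRPS2 (0.621 ± 0.0199 and 0.593 ± 0.0362) and of NME1 to NME2 (5.29 ± 0.0398 and 4.94 ± 0.320) overlapped between groups (exact permutation p = 0.4 and 0.3). No pair passed after adjustment, which the design does not allow.

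**Figure D4:**
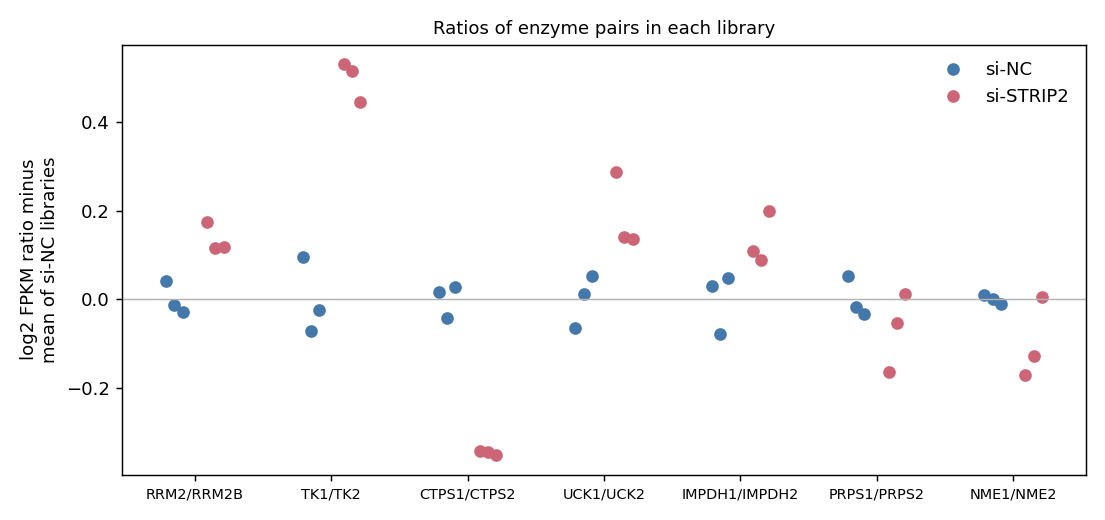
Log2 ratio of FPKM of 7 enzyme pairs in each library, with the mean of the si-NC libraries of that pair set to 0. The si-STRIP2 points of CTPS1/CTPS2 lie near -0.35 and those of TK1/TK2 near 0.50, while the points of PRPS1/PRPS2 and NME1/NME2 overlap with the controls.

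Of 87 other genes of nucleotide metabolism listed by function, 71 were tested, of which 21 rose and 19 fell (29.6% higher and 56.3% called in either direction, beside 27.8% and 54.8% of all tested genes), with a median log2 fold change of -0.018. Under DESeq2, 10 were higher and 18 lower of 73 tested, beside 39.4% of all tested genes called. The 30 tested genes of other synthesis and salvage steps split into 8 higher and 9 lower. UPP1, the uridine phosphorylase, fell from 25.2 ± 1.05 to 17.3 ± 0.558 FPKM (SD, n = 3, edgeR adjusted p = 1.66e-12), and ADSS1, the muscle-type partner of ADSS2, fell from 1.70 to 0.723 FPKM (edgeR adjusted p = 2.01e-10).

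Of the 21 tested genes of breakdown and sanitation, 5 rose and 6 fell. NT5E, the surface enzyme CD73 that makes adenosine, fell from 44.7 ± 1.87 to 33.9 ± 1.13 FPKM (SD, n = 3, edgeR adjusted p = 6.49e-10). NT5C2, a cytosolic purine nucleotidase, fell from 9.30 to 7.28 FPKM (edgeR adjusted p = 2.11e-08). NUDT1, which clears oxidised purine triphosphates, rose from 4.14 to 6.18 FPKM (edgeR adjusted p = 9.70e-06).

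Folate supplies the carbons for purines and for thymidylate, and 4 of its 13 tested genes rose and 2 fell. MTHFD1, the cytosolic enzyme that makes the formyl donor used by GART and ATIC, rose from 8.64 ± 0.381 to 13.3 ± 0.237 FPKM (SD, n = 3, edgeR adjusted p = 8.20e-15), and SHMT1 from 5.50 ± 0.381 to 7.58 ± 0.4223. ALDH1L2, a mitochondrial enzyme that oxidises formyl folate, fell from 1.18 to 0.637 FPKM (edgeR adjusted p = 2.27e-07). Of 7 tested nucleoside and nucleotide carriers, 4 rose and 2 fell, with the nucleoside transporters SLC29A1 going from 9.38 to 11.2 FPKM and SLC29A2 from 6.26 to 7.85, and SLC25A33, a mitochondrial pyrimidine nucleotide carrier, from 10.0 to 8.01. The median log2 fold change of the carriers was 0.22.

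**Figure D5:**
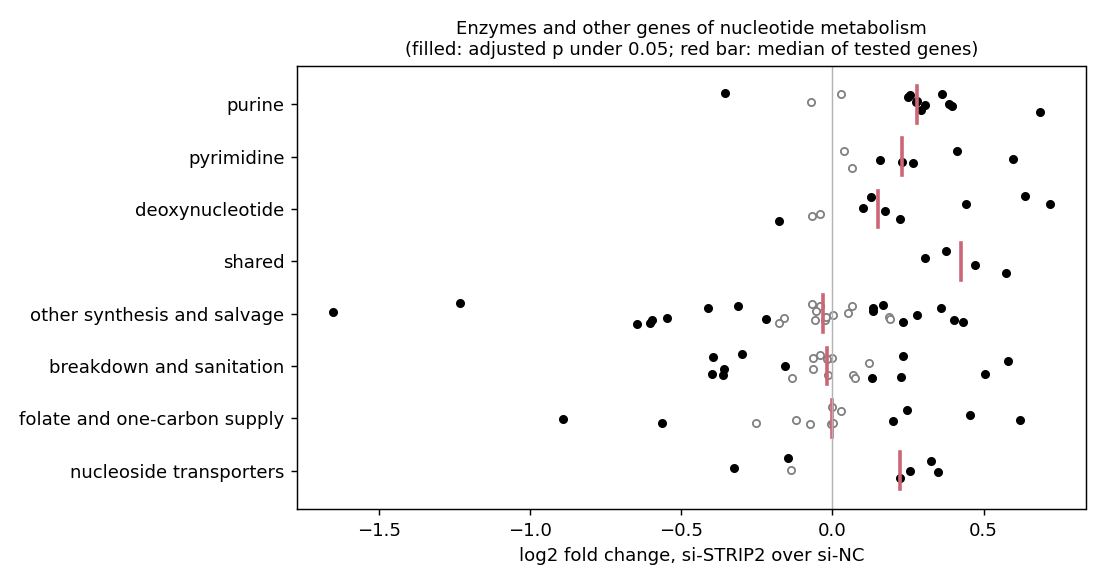
Log2 fold change (x axis) of the enzymes by role and of the tested genes of 4 further lists, with filled points for an adjusted p under 0.05 and a red bar at each median. The medians of the 4 enzyme roles lie between 0.15 and 0.42, and those of other synthesis and salvage, breakdown, and folate supply lie near 0. That of nucleoside transporters is 0.22, within the range of the enzyme roles.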

How the data were processed

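Poly(A) RNA of 6 HCT116 libraries was sequenced. The submitters' processing notes list cutadapt 1.9.1, HISAT2 2.2.1, HTSeq 0.6.1 and GRCh38.p13, with no role or order. The annotation release and the use of strand are not given in the sources used here. Per the file headers, the deposited table gives raw counts and FPKM values (counts scaled by exonic length and library total) per gene and library. Genes were kept by filterByExpr at a minimum count setting of 10, which does not require 10 counts in every library. On these genes, edgeR 4.0.16 (R 4.3.3) with TMM scaling gave 2-sided quasi-likelihood tests of group. Adjusted p-values are Benjamini-Hochberg over the 15687 genes tested, called under 0.05, and standard errors are the log2 fold change over the square root of F. The 15687 genes held 99.8% of counts. DESeq2 1.42.0, limma 3.58.1 on log2(FPKM + 1), other scalings and filters, a replicate block and leaving out each library were alternatives. The edgeR script was tested on simulated data. Shared exonic bases and pseudogenes are from GENCODE on GRCh38, and promoter windows from RefSeq GRCh38.p14. The members, lists and tests were chosen with earlier results of these data known. Genes named are the 34 members, STRIP2, RRM2B, DUT and DHODH, called genes with the lowest adjusted p of each further list, and neighbours or overlapping genes. The result of 1 further gene is not reported here.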

Additional observations from a re-analysis of the deposited data

How the results depend on the processing

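The number of enzymes called was 28 in the reported test and 24 to 28 over 14 alternatives, with the 2 that fell called in each. No enzyme changed direction with a call. With the replicate number as a block, 26 enzymes were called, 24 of them higher. The deviations of same-numbered libraries from their group means had correlations of -0.0858, -0.0133 and -0.0718. With 3 libraries in each group these values cannot decide whether the numbers mark shared cultures, and no label says so. Under DESeq2, 24 enzymes were called, beside 39.4% of all tested genes, and 10 in place of 21 further genes were higher. With a filter of 5 FPKM, 25 further genes were called, 10 of them lower, on 42 tested in place of 71. Leaving out each library gave median log2 fold changes from 0.13 to 0.18 for deoxynucleotide enzymes and from 0.19 to 0.26 for pyrimidine enzymes. The range was 0.26 to 0.30 for purine enzymes, 0.42 to 0.43 for the shared enzymes and 0.24 to 0.28 for all 34. The calls lost in 1 or more alternatives were those of DCK, DCTPP1, DTYMK and UCK1. The smallest count behind an enzyme's value was 238, and no test of depth as a limit was made.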
